A study of Mus musculus with 41 samples.

Results

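Microglia, the resident macrophages of the brain, were compared between 3 weeks and 1 week of age in mice with Niemann-Pick type C disease (NPC), an interval that spans weaning. All 4 NPC libraries at 3 weeks (NPC 3w) were set against all 4 NPC libraries at 1 week (NPC 1w), chosen by their labels, 8 of the 41 libraries in the series. Single libraries are named by genotype, age in weeks and replicate letter, so that NPC-3C is replicate C of the 3-week NPC mice. NPC mice were labelled with the strain BALB/cNctr-Npc1m1N/J and wild-type (WT) mice as balb/c, and none of the mice used here was treated. The 4 WT libraries at 3 weeks and the 4 at 1 week served to ask whether a change with age differed between the genotypes. All cells came from the cerebellum and were sorted by flow cytometry as positive for both CD11b and Tmem119, so the mRNAs of those surface proteins (Itgam and Tmem119) belong to molecules used for the sort. RNA was amplified with SMART-seq v4 and sequenced as paired reads. The strain's mutation is carried in the germline, so neurons and glia around the microglia carry it too, and the labels give neither the zygosity nor the sex of single mice.

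Npc1 exports cholesterol from lysosomes, and its loss leaves cholesterol and other lipids stored there in every tissue. In the cerebellum the disease is known for the loss of Purkinje cells and for early activation of microglia. Normal microglia divide in the first days after birth, then leave the cell cycle and take on an adult profile that depends on transforming growth factor beta (TGF-beta).

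The mutated gene was low in each of the 8 NPC libraries. Npc1 had 659, 549.7, 378 and 622 normalized counts in NPC 3w libraries, against 491, 523, 489.9 and 311 in NPC 1w libraries. All per-library values are given in the order of replicates A, B, C and D and are normalized counts, read counts divided by 1 size factor per library. WT microglia held 6959, 7030.4, 6897 and 5735 at 3 weeks and 2606, 3237, 3488 and 3840.4 at 1 week, so no NPC library overlapped a WT library. The change of Npc1 with age within NPC was 0.28 ± 0.24 (SE) on the log2 scale and missed the threshold (limma adjusted p = 0.415). Transcripts of the Y-linked genes Ddx3y, Eif2s3y, Uty and Kdm5d were present in all 8 libraries and Xist lay at or below 14.9 normalized counts.

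Depth per library ran between 27.1 and 36.1 M recovered reads, with M for 1e+06, and 12003 to 14485 genes had at least 3 reads. NPC-3C stood apart. Its log2 values deviated from the group mean with an SD over genes of 1.21, against 0.585 to 0.721 in the other 7 libraries, and its total of normalized counts was the highest, at 37.2 M against 27.6 to 33.5 M. Genes with short transcripts were high and genes with long transcripts low in it: its deviation from the other 3 libraries of its group had a Spearman correlation with transcript length of -0.396 over 13407 genes, while the other 3 libraries of the group had correlations between 0.248 and 0.345 and those at 1 week between -0.307 and 0.314 (genes are not independent replicates). For NPC-3A, NPC-3B and NPC-3D the libraries set against each included NPC-3C, so these correlations are not independent of its own. Results are therefore given with this library, and for many calls and counts also without it.

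Of 14046 genes tested, 1710 were higher and 1799 lower in NPC microglia at 3 weeks than at 1 week (limma, adjusted p under 0.05), which is 12.2% and 12.8% of the genes tested. Without NPC-3C the counts were 1926 and 2003, or 13.7% and 14.3% of 14023 genes. The median change over all genes was -0.07 on the log2 scale. Rescaling to the same total moved that median by -0.206 and gave 1033 higher and 3129 lower genes, and quantile normalization moved it by 0.103 and gave 2126 and 1646. Limma array weights gave 2477 and 2710, edgeR 1892 and 1471 and DESeq2 2062 and 1677. A fit of the 8 NPC libraries of these ages alone gave 685 and 774 of 12701 genes. The shares of 12.2% and 12.8% hold for the main fit only. List counts under another setting are to be read beside that setting's totals. Across genes the change in NPC and the change in WT had a Spearman correlation of 0.539, and of 0.697 without NPC-3C (a description over 14046 and 14023 genes, no library enters both changes).

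**Figure D1:**
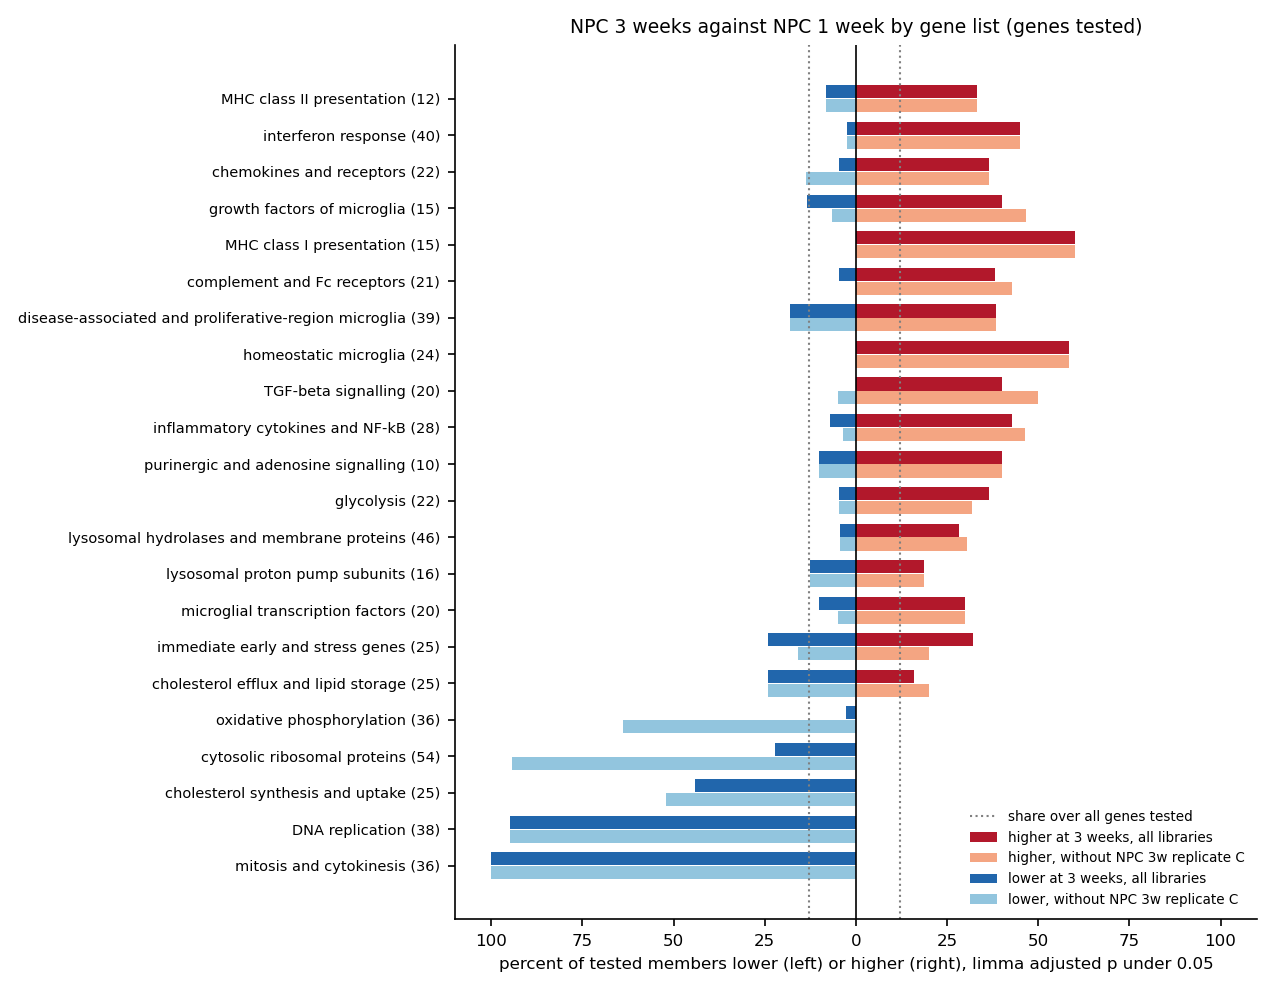
Share of each list's tested members (number in brackets) that passed the threshold as higher (right) or lower (left) in NPC microglia at 3 weeks than at 1 week, in percent, with all libraries (dark) and without NPC-3C (light). Mitosis and DNA replication lie almost wholly to the left, with 36 of 36 and 36 of 38 members, and ribosomal and oxidative phosphorylation genes move most when the library is left out.

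The machinery of cell division fell. All 36 tested genes of mitosis and cytokinesis and 36 of 38 genes of DNA replication were lower at 3 weeks, against 12.8% of all genes, and both counts were the same without NPC-3C. The median changes of these lists were -4.26 and -2.09 on the log2 scale, against -0.07 over all genes tested. In bulk samples, fewer dividing cells and less of these RNAs per cell cannot be told apart.

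The Mcm proteins form the helicase that opens DNA for replication. Mcm6 had 539, 698, 515 and 433 normalized counts in NPC 3w libraries, against 5475, 5999, 5397 and 5428 in NPC 1w libraries. Every 3-week library lay far below every 1-week library, and Mcm6 fell by 3.37 ± 0.19 (SE) on the log2 scale (limma adjusted p = 1.32e-13). Mcm5 had 884, 999, 1184 and 626 at 3 weeks and 6245, 5967, 5913 and 5959 at 1 week, with no overlap, and fell by 2.74 ± 0.15 (SE) on the log2 scale (limma adjusted p = 5.46e-14). Mcm7 and Mcm2, of the same ring, had log2 changes of -2.15 ± 0.12 and -2.40 ± 0.13 (SE, limma adjusted p = 6.59e-14 and 7.13e-14). Rrm2 and Tk1 make deoxynucleotides for the new strands. Rrm2 had 156, 219.9, 378 and 99.5 normalized counts at 3 weeks and 4834, 4499.8, 4219 and 4319 at 1 week and fell by 4.55 ± 0.28 (SE) on the log2 scale (limma adjusted p = 7.33e-13), and Tk1 fell by 4.07 (limma adjusted p = 6.06e-13). Mcm10, which starts replication forks, had 52.8, 59.8, 0 and 22 at 3 weeks, where NPC-3C was listed at 0, and 723, 735, 702 and 694 at 1 week. It fell by 5.43 ± 0.80 (SE) on the log2 scale (limma adjusted p = 7.44e-06), and its log2 change was -4.08 without that library. The repressor E2f8, the linker histone Hist1h1b and the helicase Pif1 were among the 12 largest falls. E2f8 had 29.3, 23.5, 2.6 and 18.9 normalized counts at 3 weeks and 555, 593, 675 and 771 at 1 week, Hist1h1b 2.52, 0, 0 and 4.19 and 82, 161, 110.2 and 134, and Pif1 14.3, 13.9, 2.6 and 30.4 and 407, 700.3, 716 and 437. At 3 weeks these genes lay near 0, where the fitted change depends on the pseudocount of 1.

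The median fall was larger for mitotic genes. Racgap1, needed for cytokinesis, had 280, 279.6, 386 and 200.1 normalized counts in NPC 3w libraries, against 3541, 4043, 3399 and 4026 in NPC 1w libraries, and fell by 3.74 ± 0.17 (SE) on the log2 scale (limma adjusted p = 1.61e-15). Ndc80, of the kinetochore, had 52, 48, 52 and 36.7 at 3 weeks and 862, 1036, 940.2 and 878 at 1 week and fell by 4.28 ± 0.23 (SE) on the log2 scale (limma adjusted p = 3.72e-14). The topoisomerase Top2a had 262, 228, 23.4 and 128 at 3 weeks and 4019.8, 3523, 4006 and 4086 at 1 week. NPC-3C was the lowest 3-week library for Top2a but the highest for cyclin A2 (Ccna2), the checkpoint kinase Bub1 and the passenger protein Birc5, so no single direction holds for it within the list. Ccna2 had 80.5, 95, 144 and 73.3 at 3 weeks and 1729, 1738, 1781 and 2171 at 1 week, and fell by 4.27 ± 0.24 (SE) on the log2 scale (limma adjusted p = 1.25e-13). Depdc1a, the phosphatase Cdc25c and the kinesin Kif4 were among the 12 largest falls, with 39.4, 13.9, 18.2 and 21 normalized counts of Kif4 at 3 weeks against 819.7, 892, 862 and 948 at 1 week.

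In WT microglia the median change of the mitosis list was -5.10 and that of the replication list -2.51 on the log2 scale. The fall was smaller in NPC for 7 of 36 mitotic genes (Ccna2, Ccnb1, Aurka, Birc5, Ube2c, Kif23 and Kif2c), against 0.861% of all genes tested, and for 0 of 38 replication genes, by the test of the difference between both changes. Ccna2 had 55.8, 40.9, 45.8 and 22.1 normalized counts in WT libraries at 3 weeks and 1671, 1809, 2472 and 2269.9 at 1 week, a difference between the changes of 1.40 ± 0.35 (SE, limma adjusted p = 0.0389). Birc5 stood at 81.3, 83.3, 182 and 73.3 in NPC 3w and 1818, 2398, 1918 and 2001 in NPC 1w libraries and at 38.3, 43.5, 32.2 and 61.4 in WT 3w and 2459, 2816, 2606 and 2759.6 in WT 1w libraries, a difference of 1.57 ± 0.40 (SE, limma adjusted p = 0.0488). The count of 7 was 4 without any 1 of WT-1B, WT-1C or WT-1D, WT-3B, NPC-1A or NPC-1C, or NPC-3B or NPC-3C, and 4 after either rescaling to the same total or quantile normalization. Neither Ccna2 nor Birc5 passed in the fit of only the groups compared or with the replicate block.

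Promoter sequence was read for these genes because they fell together. Genes of mitosis are known to carry a CHR element (TTTGAA) near the start site, often with a CCAAT box, and genes of replication an E2F site (TTTGGCGC or TTTCCCGC). In the RefSeq promoter windows of mouse build GRCm38.p6, which run from 250 bases before to 50 after each start, TTTGAA on either strand lay in 26 of 33 windows of 31 matched mitosis genes (78.8%), against 17.9% of 32851 windows of all genes. CCAAT on either strand also lay in 26 of 33 (78.8%, against 37.4%), and both in 23 of 33 (69.7%, against 6.95%). For the replication list, either E2F form lay in 10 of 33 windows of 29 matched genes (30.3%, against 1.56% of all), and TTTGAA in 4 of 33 (12.1%). CCAAT lay in 18 of 33 windows of this list (54.5%, against 37.4% of all). A match is a run of letters, not a shown binding site. Cdc20, Prc1 and Top2a of the mitosis list and Mcm6 and Mcm7 of the replication list are printed to show where the letters fall. The first 3 were chosen after their values were seen. In the mitosis stretches capitals mark TTTGAA and CCAAT on either strand, and in the Mcm6 and Mcm7 stretches the E2F form alone. Every stretch lies upstream of the start and reads 5′ to 3′ along the gene.
Cdc20: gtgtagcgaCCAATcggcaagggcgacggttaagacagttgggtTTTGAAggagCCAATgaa
Prc1: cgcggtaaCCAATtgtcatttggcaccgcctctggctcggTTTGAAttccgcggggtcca
Top2a: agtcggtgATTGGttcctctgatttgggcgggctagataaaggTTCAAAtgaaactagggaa
Mcm6: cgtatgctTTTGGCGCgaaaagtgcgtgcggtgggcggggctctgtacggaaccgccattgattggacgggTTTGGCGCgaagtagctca
Mcm7: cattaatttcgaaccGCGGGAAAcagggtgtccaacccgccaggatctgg
The Cdc20 stretch is chr4:118437344-118437405 (minus strand), the Prc1 stretch chr7:80294406-80294465 (plus strand), the Top2a stretch chr11:99024194-99024255 (minus strand), the Mcm6 stretch chr1:128359734-128359823 (minus strand) and the Mcm7 stretch chr5:138172014-138172063 (minus strand), all in GRCm38.p6. In Cdc20, Prc1 and Top2a a CCAAT box stands upstream of a TTTGAA element on 1 strand or the other, and Mcm6 holds the first E2F form more than once. Cdc20, which activates the complex that ends mitosis, had 179, 236, 96.2 and 169.7 normalized counts at 3 weeks and 2056, 2672, 2496 and 2336 at 1 week. Prc1, which bundles the microtubules of the spindle midzone, had 150.1, 148, 42.9 and 95.3 at 3 weeks and 2687, 2468, 2197 and 2469 at 1 week, with no overlap in either gene.

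Many genes of the adult microglial identity rose with the deposited scaling. Of 24 tested homeostatic genes 14 were higher and 0 lower at 3 weeks, against 12.2% and 12.8% of all genes, with a median change of 0.43 on the log2 scale. The count of 14 was 14 without NPC-3C and 9 without NPC-1D. It was 7 under both rescaling to the same total and quantile normalization, which also called 1 member lower, and 8 in a fit of the NPC 3w and NPC 1w libraries alone. The median of the list was 0.22 after rescaling, against -0.28 over all genes. With quantile normalization it was 0.07, close to the 0.03 over all genes. In WT the median change of the list was 0.49.

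Selplg, the ligand of P-selectin, had 99341, 115458, 98106 and 104460 normalized counts in NPC 3w libraries, against 55992, 35457, 36636 and 25924 in NPC 1w libraries. All 3-week libraries lay above all 1-week libraries, and Selplg rose 2.81-fold (95% interval 2.2 to 3.58, limma adjusted p = 1.2e-07). Tmem119, the microglial surface protein used in the sort, had 155371, 181676, 242436 and 140859 at 3 weeks and 101458, 71273, 73839 and 52430.3 at 1 week and rose 2.42-fold (95% interval 1.93 to 3.04, limma adjusted p = 4.87e-07). NPC-3C was the highest library for it, and the rise was 2.18-fold without it. The adhesion receptor Gpr56 rose 2.12-fold (95% interval 1.77 to 2.55, limma adjusted p = 2.14e-07), with 51518, 53656, 56900.5 and 49997 at 3 weeks and 32918, 22001, 26834 and 19909.5 at 1 week. Olfml3, a secreted protein, rose 1.61-fold (limma adjusted p = 0.000241). The chosen markers of microglia were high in all 8 libraries, and 4 of 10 rose (among them Tmem119, Siglech and Csf1r) and 0 fell. Without NPC-3C 6 of 10 rose, and without any 1 of NPC-1C or NPC-1D or NPC-3A, NPC-3B or NPC-3D 2 did. Quantile normalization left 1 higher and 1 lower. Csf1r, the receptor on which microglia depend, had 553241, 663655, 363926 and 582376 normalized counts at 3 weeks and 483937, 385219, 408977 and 371269 at 1 week, and rose 1.29-fold (95% interval 1.07 to 1.55, limma adjusted p = 0.0372). NPC-3C lay below all 1-week libraries and the other 3-week libraries above them. The call was lost without any 1 of NPC-1B, NPC-1C or NPC-1D or NPC-3A, NPC-3B or NPC-3D, after rescaling to the same total and in the fit of these libraries alone, and quantile normalization turned the change to -0.12. Itgam, which encodes CD11b, had 49653, 47246, 18335 and 50372 at 3 weeks and 31685, 21391, 28556 and 25251 at 1 week. It missed the threshold with all libraries (log2 change 0.54 ± 0.21, limma adjusted p = 0.057), with NPC-3C below and the other 3-week libraries above all 1-week libraries, and passed without NPC-3C (log2 change 0.89, limma adjusted p = 7.25e-06). P2ry12, Cx3cr1, Sall1, Fcrls and Aif1 did not pass the threshold, with log2 changes of 0.37 ± 0.16, 0.25 ± 0.17, -0.24 ± 0.21, -0.02 ± 0.14 and 0.45 ± 0.22 (SE), and of these Cx3cr1 passed without NPC-3C (log2 change 0.45, limma adjusted p = 0.0236). The transcription factor Sall1 had 20577, 15626, 7377 and 16493 at 3 weeks and 15397, 14368, 20374 and 16659 at 1 week, NPC-3C being the lowest of the 8 libraries.

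**Figure D2:**
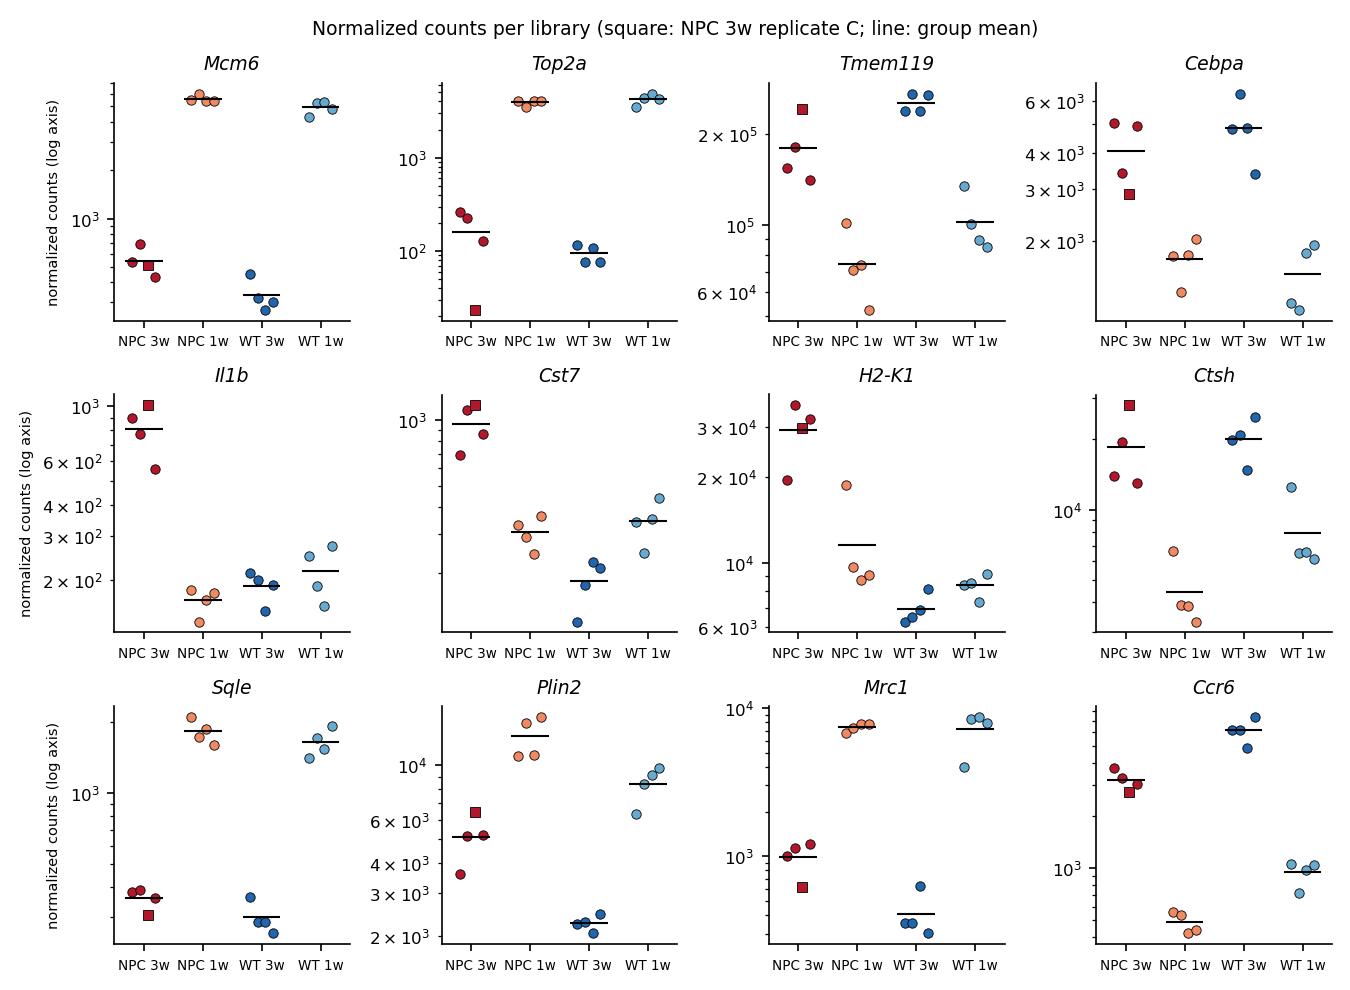
Normalized counts of 12 genes in each library (log axes, with a range of its own in each panel), NPC 3w left of NPC 1w and WT 3w left of WT 1w. The line is the group mean and the square is NPC-3C, which is the lowest NPC 3w library for Top2a, Cebpa, Sqle, Mrc1 and Ccr6 and the highest for Tmem119, Il1b, Cst7, Ctsh and Plin2.

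Of 20 tested transcription factors of microglia, 6 were higher (among them Irf8, Mef2a, Cebpa, Bhlhe40 and Nfkb1) against 12.2% of all genes, and 2 were lower (Klf2 and Klf4), a share near the 12.8% of all genes. Rescaling to the same total left 3 higher, quantile normalization 4 and the fit of these libraries alone 2. The median change of the list was 0.14 on the log2 scale in NPC and 0.45 in WT. Only 1 of 20 (Klf2) passed the test of a difference from WT, as lower, against 0.199% of all genes. Cebpa, a factor of the myeloid lineage, had 5053, 3404, 2889 and 4918 normalized counts in NPC 3w libraries, against 1779, 1337, 1796 and 2029 in NPC 1w libraries, with no overlap, and rose 2.3-fold (95% interval 1.57 to 3.39, limma adjusted p = 0.00144). Irf8, required for microglial development, had 25689, 27428, 25796 and 24351 at 3 weeks and 20883, 20004, 20377 and 19935 at 1 week. Its rise of 1.27-fold (95% interval 1.11 to 1.45, limma adjusted p = 0.00682) was small but the libraries did not overlap, and its adjusted p was 0.202 after rescaling to the same total, 0.26 with quantile normalization and 0.0888 in the fit of these libraries alone. Mef2a rose 1.67-fold (95% interval 1.29 to 2.18, limma adjusted p = 0.0035), with NPC-3C at the 1-week level, and missed the threshold after rescaling to the same total (adjusted p = 0.0625) and in the fit of these libraries alone (0.106). Klf2, a factor of quiescent endothelial and immune cells, had 220.5, 100.3, 83.2 and 216 at 3 weeks and 1354, 1491, 1951 and 2946 at 1 week and fell by 3.70 ± 0.39 (SE) on the log2 scale (limma adjusted p = 2.45e-08). WT libraries held 555, 712, 797 and 432 at 3 weeks and 1619.9, 1202, 1292 and 2328 at 1 week, and the fall was deeper in NPC by -2.34 ± 0.55 (SE, limma adjusted p = 0.0287). That difference had an adjusted p of 0.0631 without NPC-3C and lost its call without 8 other libraries, among them NPC-1C (0.0656). The count of 2 lower factors was 1 without any 1 of NPC-1A, NPC-1C or NPC-1D or NPC-3A, NPC-3B or NPC-3C.

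Genes of the TGF-beta pathway, which maintains adult microglia, rose in part. Of 20 tested, 8 were higher and 0 lower, against 12.2% and 12.8% of all genes, with a median of 0.42, and 10 were higher and 1 lower without NPC-3C. The median was 0.66 without NPC-3C and 1.15 in WT. The test of a difference from WT was passed by 0 of 20, against 0.861% and 0.199% of all genes. The 8 became 5 without any 1 of NPC-1B or NPC-1D or NPC-3A or NPC-3B, and rescaling to the same total gave 4 higher and 1 lower. The receptor Tgfbr1 had 47941, 47173, 95233 and 44722 normalized counts in NPC 3w libraries, against 24279.5, 15622, 21266 and 20189 in NPC 1w libraries, and rose 2.77-fold (95% interval 2.12 to 3.63, limma adjusted p = 8.85e-07). NPC-3C stood far above the other 3-week libraries, and the rise was 2.32-fold without it. Acvrl1, another receptor of the family, had 1889, 1992, 2109.9 and 1554 at 3 weeks and 1118, 758, 940.2 and 778 at 1 week and rose 2.11-fold (95% interval 1.74 to 2.56, limma adjusted p = 6.42e-07). Skil, a repressor that the pathway induces as feedback, and Itgav, an integrin subunit that releases active TGF-beta, rose 2.03-fold and 1.72-fold (limma adjusted p = 7.66e-05 and 0.00219). Of 15 tested growth factors of microglia and their receptors 6 were higher and 2 lower, 2 of 15 being near the 12.8% of all genes, or 2 and 1 in the fit of these libraries alone. Pdgfa, a growth factor for oligodendrocyte precursors, had 827, 774, 690.3 and 588 at 3 weeks and 199, 271, 303 and 256 at 1 week and rose 2.8-fold (95% interval 2.07 to 3.78, limma adjusted p = 4.34e-06), while Tgfa, a ligand of the epidermal growth factor receptor, rose 1.76-fold (95% interval 1.47 to 2.11, limma adjusted p = 2e-05). Insulin-like growth factor 1 (Igf1), a factor of young microglia that support myelination, had 470.3, 546, 526 and 666 at 3 weeks and 827, 1536, 1478 and 2495 at 1 week and fell by 1.42 ± 0.40 (SE) on the log2 scale (limma adjusted p = 0.00882). The count of 2 lower genes was 1 without NPC-1B or NPC-1D or NPC-3C, and 7 were higher without NPC-3C.

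A part of the interferon-response genes rose in NPC microglia. Type I interferons act through Irf9 and its partners on promoters with an interferon-stimulated response element, and the induced genes restrict viruses. Of 40 tested, 18 were higher, 1 lower and 21 not called at 3 weeks, against 12.2% higher and 12.8% lower of all genes, with a median change of 0.75 on the log2 scale in NPC and of -0.65 in WT. Without NPC-3C the counts were the same, and they were 14 and 1 after rescaling to the same total, 22 and 1 with quantile normalization. The change was higher in NPC than in WT for 17 of 40, against 0.861% of all genes, by the test of the difference. Of these 17, 11 were also called higher at 3 weeks within NPC. The count of 17 was 14 without NPC-3C, 11 without WT-1A, WT-1B or WT-1C or NPC-1D, 9 without NPC-3B, 8 without WT-1D or NPC-1B, 6 without WT-3A or WT-3B and 4 without NPC-1C.

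Irf9, the DNA-binding subunit, had 3621, 4391, 5213 and 4364 normalized counts in NPC 3w libraries, against 2912, 2559, 2152 and 2156 in NPC 1w libraries, and rose 1.8-fold (95% interval 1.49 to 2.17, limma adjusted p = 1.84e-05). WT libraries held 2551, 2626, 2436 and 3005 at 3 weeks and 2978, 2380.2, 2487 and 2317 at 1 week, a level that overlapped between ages, and the difference between the changes was 0.78 ± 0.19 (SE, limma adjusted p = 0.0335). It did not pass without NPC-3C (adjusted p = 0.0598), without most other single libraries or with the replicate block. Irf1, a transcription factor induced by interferon gamma, had 2467, 2749, 2462 and 2516 at 3 weeks and 1692, 1639.7, 1589 and 1204 at 1 week and rose 1.68-fold (95% interval 1.42 to 1.98, limma adjusted p = 2.13e-05). Among the effectors, Ifit3, which binds viral RNA complexes, had 1068, 1309, 1470.3 and 986 at 3 weeks and 879.6, 277, 289 and 214 at 1 week. The groups did not overlap, though NPC-1A stood far above the other 1-week libraries, and Ifit3 rose 3.4-fold (95% interval 2.02 to 5.72, limma adjusted p = 0.000616). In WT, Ifit3 had 162, 139, 167 and 271 at 3 weeks and 387, 255, 187 and 306 at 1 week, and the difference was 2.38 ± 0.52 (SE, limma adjusted p = 0.0198). Reads of Ifit3 may be split with close copies of the family. Cxcl10, the chemokine that draws activated T cells, had 632, 366, 372 and 429.5 in NPC 3w and 297, 143, 114 and 107 in NPC 1w libraries, and 38.3, 34.1, 82.2 and 46 in WT 3w and 145, 193, 158 and 312 in WT 1w libraries. It rose 2.9-fold (95% interval 1.55 to 5.4, limma adjusted p = 0.0101) in NPC, and the difference from WT was 3.54 ± 0.62 (SE, limma adjusted p = 0.00438), with all 4 NPC 3w libraries above all 4 WT 3w libraries. Isg20, an exonuclease, and Trim30a, of the TRIM family, rose 2.93-fold and 1.56-fold (limma adjusted p = 0.000321 and 0.000612). Gbp3, a guanylate-binding protein, was the 1 member that fell, by 0.96 ± 0.19 (SE) on the log2 scale (limma adjusted p = 0.000424).

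The response element, searched as a pair of GAAA runs with 2 bases between them on either strand, lay in 16 of 38 promoter windows of the interferon list (42.1%), against 3.44% of all windows. The upstream stretches of Ifit3, Cxcl10 and Trim30a, which rose, are printed with these letters in capitals.
Ifit3: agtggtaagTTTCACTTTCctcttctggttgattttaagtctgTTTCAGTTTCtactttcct
Cxcl10: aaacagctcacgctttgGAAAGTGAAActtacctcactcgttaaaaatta
Trim30a: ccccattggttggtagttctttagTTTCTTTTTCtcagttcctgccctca
They lie at chr19:34583364-34583425 (plus strand), chr5:92349070-92349119 (minus strand) and chr7:104465204-104465253 (minus strand) of GRCm38.p6. Ifit3 holds the element more than once in this stretch and the other genes 1 time each.

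**Figure D3:**
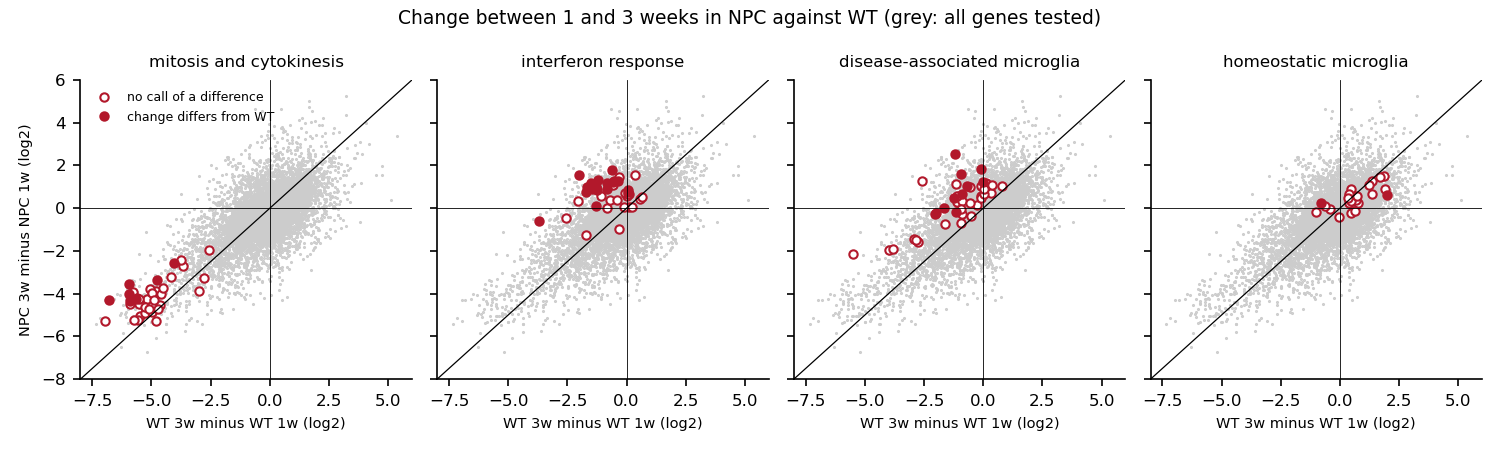
Change between 1 and 3 weeks on the log2 scale in NPC (vertical) against WT (horizontal) for the members of 4 lists, over all genes tested in grey, with the line of equal change. Filled points passed the test of a difference between the genotypes: 7 of 36 mitotic, 17 of 40 interferon-response, 10 of 39 disease-associated and 2 of 24 homeostatic genes.

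Of 15 tested genes of class I antigen presentation 9 were higher and 0 lower, against 12.2% and 12.8% of all genes, also without NPC-3C, with a median of 0.62, with 8 higher and 1 lower after rescaling to the same total and 4 higher in the fit of these libraries alone. H2-T23, a class Ib molecule, had 5128, 6753, 9151 and 6176 normalized counts in NPC 3w libraries, against 2965, 2102, 1855 and 1975 in NPC 1w libraries, and rose 3.04-fold (95% interval 2.34 to 3.96, limma adjusted p = 1.34e-07). H2-K1, a classical class I heavy chain, had 19502, 35674, 29631 and 31917 at 3 weeks and 18819.9, 9672, 8714 and 9135 at 1 week, with NPC-1A just below the lowest 3-week library. It rose 2.6-fold (95% interval 1.87 to 3.6, limma adjusted p = 4.43e-05), and the change differed from WT by 1.65 ± 0.33 (SE, limma adjusted p = 0.009), with 6252, 6489, 6840 and 8113 in WT 3w and 8402, 8561, 7346 and 9168 in WT 1w libraries. Class I heavy chains are near-identical genes between which reads can be split, so values of single members are uncertain. Tapbp, which loads peptides onto class I molecules, rose 1.77-fold (95% interval 1.45 to 2.16, limma adjusted p = 5.44e-05). For class II, 4 of 12 genes were higher and 1 lower, against the same shares of all genes, and 10 were higher without NPC-3A. The chains of H2-O, which restrains peptide loading, both rose: H2-Oa had 273, 348, 498 and 249 at 3 weeks and 142, 161, 119 and 122 at 1 week, and H2-Ob rose 2.71-fold (limma adjusted p = 0.000328).

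Of 28 tested inflammatory cytokines and components of the NF-kB pathway, 12 were higher and 2 lower (Tnf and Nfkbiz), against 12.2% and 12.8% of all genes, and 14 did not pass. Rescaling to the same total gave 9 and 3, and the fit of these libraries alone left 6 and 1. Leaving out 1 library moved the count of lower genes to between 0 and 3. Without NPC-3C 13 were higher and 1 lower. The median change of the list was 0.41 on the log2 scale in NPC and 0.27 in WT, and the median difference between the changes was -0.006. Only 2 of 28 (Il1b and Il1rn, described next) passed the test of a difference from WT, both as higher in NPC, against 0.861% of all genes. Interleukin 1 beta (Il1b) had 897, 771, 1007 and 560.5 normalized counts in NPC 3w libraries, against 183, 136, 166 and 178 in NPC 1w libraries. Every 3-week library lay at least 3 times above every 1-week library, and Il1b rose 4.78-fold (95% interval 3.52 to 6.49, limma adjusted p = 4.2e-09). WT libraries held 214, 199.5, 151 and 191 at 3 weeks and 251, 189, 157 and 275 at 1 week, overlapping, and the change in NPC exceeded that in WT by 2.44 ± 0.30 (SE, limma adjusted p = 0.000122). Its antagonist Il1rn had 224, 332, 724 and 177 at 3 weeks and 18.9, 26.8, 39.6 and 120.2 at 1 week in NPC, and 30, 68.2, 22.9 and 82.5 and 28.4, 131, 119.6 and 88.7 at the same ages in WT. Il1rn rose 7.72-fold (95% interval 3.36 to 17.7, limma adjusted p = 0.00037), and its difference from WT of 3.77 ± 0.83 (SE, limma adjusted p = 0.0201) was lost without WT-3A (adjusted p = 0.0511) and in the fit of only the groups compared (adjusted p = 0.0707). Nfkbia, the inhibitor that NF-kB induces, had 5148, 6086, 9110.3 and 7384 at 3 weeks and 2408, 2684, 2321 and 2322 at 1 week and rose 2.79-fold (95% interval 2.1 to 3.71, limma adjusted p = 2e-06), with a WT change of 1.69. The subunit Relb and the lipopolysaccharide co-receptor Cd14 rose 1.9-fold and 1.78-fold (limma adjusted p = 5.08e-05 and 0.000629).

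Chemokines draw immune cells to a site and act on G protein-coupled receptors. Of 22 tested chemokines and receptors, 8 were higher and 1 lower, against 12.2% and 12.8% of all genes, and 8 and 3 without NPC-3C. Ccr6, a receptor for Ccl20, had 3729, 3299, 2726 and 3028 normalized counts in NPC 3w libraries, against 557, 535, 422 and 437 in NPC 1w libraries, and rose 6.54-fold (95% interval 5.34 to 8.01, limma adjusted p = 3.72e-14). No libraries overlapped, and the WT change was 2.71 on the log2 scale against 2.71 ± 0.14 (SE) in NPC. The transmembrane chemokine Cxcl16 had 3983, 5826, 8022 and 3961 at 3 weeks and 1509, 1196, 1178 and 1093 at 1 week and rose 4.22-fold (95% interval 3.18 to 5.6, limma adjusted p = 4.89e-09). Its difference from WT was 1.11 ± 0.28 (SE, limma adjusted p = 0.0482) and did not pass without NPC-3C (adjusted p = 0.0844), with the replicate block or in the fit of only the groups compared. Ccrl2, a non-signalling chemerin receptor, rose 2.79-fold (95% interval 1.98 to 3.93, limma adjusted p = 2.98e-05). Ccr1 had 497, 786, 1213 and 384 at 3 weeks and 1849, 1451, 1375 and 1574 at 1 week, with NPC-3C just below the 1-week range, and fell by 1.25 ± 0.27 (SE) on the log2 scale (limma adjusted p = 0.000993). The change was higher in NPC than in WT for 5 of 22 (Ccl2, Ccl7, Ccl12, Cxcl10 and Cxcl16), against 0.861% of all genes. Of these 5, 2 (Cxcl10 and Cxcl16) were also called higher at 3 weeks within NPC. The count of 5 was 2 without NPC-3B or NPC-3C, NPC-1B or NPC-1C, WT-1C or WT-1D or WT-3A or WT-3B, 3 without NPC-1D, and 8 without NPC-3A.

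Microglia raise a set of disease-associated genes around plaques, dying neurons or myelin, and microglia of the newborn brain also express them. Of 39 tested, 15 were higher, against 12.2% of all genes, and 7 lower, against 12.8%. The counts were the same without NPC-3C, with a median of 0.46 in NPC and -0.92 in WT, and quantile normalization gave 12 and 10. Cst7, an inhibitor of lysosomal proteases, had 688, 1106, 1161 and 862 normalized counts in NPC 3w libraries, against 331, 292, 244 and 362 in NPC 1w libraries, and rose 3.07-fold (95% interval 2.02 to 4.66, limma adjusted p = 0.000129). In WT it had 119.9, 177, 225 and 210.1 at 3 weeks and 339.8, 247, 353 and 439 at 1 week, the opposite order, and the difference was 2.54 ± 0.42 (SE, limma adjusted p = 0.00323). Cd83, a surface protein of activated myeloid cells, had 14848, 22059.6, 28389 and 18447 in NPC 3w and 9942, 8920.2, 7574 and 8693 in NPC 1w libraries, with no overlap. It rose 2.33-fold (95% interval 1.87 to 2.89, limma adjusted p = 5.16e-07), while WT overlapped between ages at 6963, 8315, 9105 and 8404 and 8887, 8365, 8619 and 7455, a difference of 1.25 ± 0.22 (SE, limma adjusted p = 0.00421). The hypoxia-inducible factor Hif1a and the adhesion molecule Cadm1 rose 2.1-fold and 2.08-fold (limma adjusted p = 1.47e-06 and 1.02e-05). Lipoprotein lipase (Lpl) had 1112, 1653, 628 and 999 at 3 weeks and 1686, 3589, 3348 and 4791 at 1 week and fell by 1.60 ± 0.30 (SE) on the log2 scale (limma adjusted p = 0.000163), and the fatty acid-binding protein Fabp5 had 128, 180.4, 464 and 283 at 3 weeks and 524, 850.4, 778 and 1844 at 1 week and fell by 1.92 ± 0.45 (SE) on the log2 scale (limma adjusted p = 0.00215). Spp1, Gpnmb, Igf1, Lgals1 and Gusb were the other members that fell. The change was higher in NPC than in WT for 10 of 39 genes, against 0.861% of all genes. Of these 10, 6 were also called higher at 3 weeks within NPC. Without 1 library the count of 10 was 21 (NPC-3A), 8 (NPC-3C), 6 (WT-1C, WT-3B, NPC-1A or NPC-1B) or 5 (WT-1D, WT-3A, NPC-1C, NPC-3B).

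Of 46 tested lysosomal hydrolases and membrane proteins 13 were higher and 2 lower with the deposited scaling, against 12.2% and 12.8% of all genes, but 9 and 6 after rescaling to the same total and 9 and 10 with quantile normalization, so that no direction of the list holds under all scalings. Without NPC-3A 20 were higher, and without NPC-3C 14. The cysteine protease Ctsh had 13929.7, 19378, 27961 and 13047 normalized counts in NPC 3w libraries, against 6617, 3899, 3850.2 and 3309 in NPC 1w libraries, and rose 4.16-fold (95% interval 2.97 to 5.82, limma adjusted p = 1.25e-07). Ctss, which cleaves the class II chaperone, had 215082, 277139, 441130 and 240015 at 3 weeks and 124244, 93626, 76755 and 79082 at 1 week and rose 3.07-fold (95% interval 2.33 to 4.07, limma adjusted p = 3.21e-07). In both genes NPC-3C was the highest 3-week library and no libraries overlapped. Ctsc, which activates granule proteases, rose 2.11-fold (95% interval 1.56 to 2.85, limma adjusted p = 0.000337). The aspartic protease Ctsd had 1343150, 1651770, 1616210 and 1665290 at 3 weeks and 1005530, 1032900, 828246 and 952260 at 1 week, and rose 1.64-fold (95% interval 1.37 to 1.97, limma adjusted p = 9.22e-05), a rise that quantile normalization removed (adjusted p = 1). The glucuronidase Gusb had 16342, 20021, 19722 and 17987 at 3 weeks and 32242, 31388, 27792 and 29434 at 1 week and fell by 0.71 ± 0.11 (SE) on the log2 scale (limma adjusted p = 8.48e-06). Of 16 tested proton pump subunits 3 were higher and 2 lower, shares near those of all genes. Atp6v1c1 rose 1.86-fold (95% interval 1.52 to 2.29, limma adjusted p = 2.73e-05). Atp6v0a1 fell by 0.42 ± 0.10 (SE) on the log2 scale (limma adjusted p = 0.00246), and Atp6v0d2, a subunit of osteoclasts and macrophages, had 0, 2.13, 0 and 1.05 at 3 weeks and 8.41, 23.6, 49 and 156 at 1 week.

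Complement and Fc receptor genes were higher in 8 of 21 cases and lower in 1, against 12.2% and 12.8% of all genes, and in 9 and 0 without NPC-3C. The fit of the 8 libraries alone left 3 higher and 0 lower. The integrin subunit Itgb2, which pairs with CD11b in complement receptor 3, had 19476, 22357, 15813 and 18898 normalized counts in NPC 3w libraries, against 12228, 9243, 9581 and 9072 in NPC 1w libraries, and rose 1.91-fold (95% interval 1.59 to 2.29, limma adjusted p = 2.99e-06). The inhibitory receptor Fcgr2b had 8146, 10200.5, 12568 and 10068 at 3 weeks and 7216, 5912, 5169 and 5419.6 at 1 week and rose 1.72-fold (95% interval 1.43 to 2.07, limma adjusted p = 3.38e-05). C1qb, a chain of the molecule that starts the classical cascade, rose 1.69-fold (95% interval 1.35 to 2.14, limma adjusted p = 0.000827), with a WT change of 0.05. Purinergic receptors, which sense nucleotides from damaged cells, were higher in 4 of 10 cases, against 12.2% of all genes, and lower in 1. The 4 were 2 after rescaling to the same total and 1 in the fit of these libraries alone. The channel P2rx4 had 4790.5, 6669.8, 10087 and 5105 at 3 weeks and 4038, 3805, 3737 and 3648 at 1 week and rose 1.67-fold (95% interval 1.31 to 2.15, limma adjusted p = 0.00216), and P2ry2 rose 2.3-fold (95% interval 1.43 to 3.69, limma adjusted p = 0.00811). P2ry6, the phagocytic receptor, fell by 0.32 ± 0.12 (SE) on the log2 scale (limma adjusted p = 0.0452), a call lost without any 1 of NPC-1A to NPC-1D or NPC-3A or NPC-3B.

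A part of the genes of sterol synthesis fell. Cells make cholesterol under the control of Srebf2, and in NPC cells the sterol that should switch this off is held in lysosomes. Of 25 tested genes of synthesis and uptake 11 were lower and 0 higher, against 12.8% and 12.2% of all genes, with a median of -0.59 on the log2 scale, and 13 were lower without NPC-3C. Squalene epoxidase (Sqle) had 383, 391, 305 and 361 normalized counts in NPC 3w libraries, against 2110.3, 1736, 1869 and 1607 in NPC 1w libraries. No libraries overlapped, and Sqle fell by 2.34 ± 0.20 (SE) on the log2 scale (limma adjusted p = 3.55e-10), with a WT change of -2.46. Cyp51, which demethylates lanosterol, had 731, 1145, 543 and 736 at 3 weeks and 2348, 1982, 2118 and 1717 at 1 week and fell by 1.41 ± 0.17 (SE) on the log2 scale (limma adjusted p = 3.39e-07). Srebf2 itself fell by 0.91 ± 0.12 (SE) on the log2 scale (limma adjusted p = 8.85e-07) and Fdps, which makes farnesyl diphosphate, by 0.82 (limma adjusted p = 7.01e-05). No gene of this list passed the test of a difference from WT, where the median change was -0.98, and 0 of 25 is set against 0.861% and 0.199% of all genes.

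Of 25 tested genes of efflux and lipid storage, 4 were higher, near the 12.2% of all genes, and 6 lower, against 12.8%. Without NPC-3C 5 were higher, and without NPC-3A 7. Plin2, which coats lipid droplets, had 3603, 5147, 6435 and 5200.4 normalized counts in NPC 3w libraries, against 10971, 14855, 11074 and 15799.6 in NPC 1w libraries, and fell by 1.38 ± 0.17 (SE) on the log2 scale (limma adjusted p = 3.91e-07). WT libraries held 2253, 2283, 2058 and 2455 at 3 weeks and 6331, 8370.3, 9105 and 9775 at 1 week. All 4 NPC 3w libraries lay above all 4 WT 3w libraries, and the changes with age did not pass the test of a difference (limma adjusted p = 0.275). Abcg1, a cholesterol exporter, had 4661, 4958, 6259 and 5885 at 3 weeks and 2580, 3557, 3314 and 4212 at 1 week and rose 1.61-fold (95% interval 1.31 to 1.97, limma adjusted p = 0.000819). Mylip, which marks the LDL receptor for degradation, and Pnpla2, the main triglyceride lipase, rose 2.09-fold and 1.78-fold (limma adjusted p = 1.05e-06 and 0.00076).

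Genes of glycolysis were higher in 8 of 22 cases and lower in 1, against 12.2% and 12.8% of all genes, and in 7 and 1 without NPC-3C. The glucose transporter Slc2a1 had 2724, 3000.3, 3996 and 3538 normalized counts in NPC 3w libraries, against 1628, 1833, 1649 and 1681 in NPC 1w libraries, and rose 1.93-fold (95% interval 1.64 to 2.28, limma adjusted p = 3.44e-07). Pfkl, the committed step, had 8629, 7990.1, 6727 and 9004 at 3 weeks and 3769.7, 4503, 4438 and 4438 at 1 week and rose 1.88-fold (95% interval 1.6 to 2.21, limma adjusted p = 4.37e-07). Aldoa had 21039, 22558, 33037 and 23509.9 in NPC 3w and 11802, 14382, 11283 and 14315 in NPC 1w libraries, and 9826, 10962, 10559 and 12100.2 in WT 3w and 10976, 10226, 9949 and 12179 in WT 1w libraries. It rose 1.91-fold (95% interval 1.54 to 2.38, limma adjusted p = 3.03e-05) and differed from WT by 0.93 ± 0.22 (SE, limma adjusted p = 0.0268). Tpi1, Gapdh, Pgk1, Pkm and Ldha also passed the test of the difference, 6 of 22 with Aldoa, against 0.861% of all genes. Of these 6 only Aldoa was also called higher at 3 weeks within NPC. The 6 were 5 without NPC-3C, 3 without WT-3A or WT-3B or NPC-1A and 2 without WT-1D or NPC-1C. Ldhb, a lactate dehydrogenase subunit, rose 2.41-fold (95% interval 1.85 to 3.12, limma adjusted p = 5.6e-06).

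The counts for translation and respiration moved with the library NPC-3C and with the scaling. Of 54 tested cytosolic ribosomal protein genes 12 were lower and 0 higher with all libraries, against 12.8% and 12.2% of all genes, and 51 were lower without NPC-3C. With all libraries kept, 40 were lower after rescaling to the same total, 21 with quantile normalization, 52 with array weights and 5 with either edgeR or DESeq2. Over all genes tested the lower counts in that order were 3129, 1646, 2710, 1471 and 1677. The count of 12 was 4 to 7 without any 1 of NPC-1A, NPC-1B or NPC-1D or NPC-3A, NPC-3B or NPC-3D, and 0 in the fit of these libraries alone. The mean over the list was 9.97, 10.2, 11.6 and 10.3 in NPC 3w libraries and 11.2, 11.3, 10.8 and 11.1 in NPC 1w libraries, as log2(normalized count + 1). NPC-3C thus lay above every 1-week library while the other 3 lay below every one. WT libraries had 9.33, 9.81, 9.82 and 9.80 at 3 weeks and 11.1, 10.8, 10.96 and 11.6 at 1 week. Rpl4 had 6231, 7618, 9785 and 6679.7 normalized counts at 3 weeks and 13413, 12088, 9883 and 10845 at 1 week and fell by 0.62 ± 0.14 (SE) on the log2 scale (limma adjusted p = 0.00111), with a log2 change of -0.75 without NPC-3C, and Rpl10a fell by 0.63 (limma adjusted p = 0.0079). For oxidative phosphorylation 1 of 36 genes was lower with all libraries, Cox5a, a share below the 12.8% of all genes, and 23 were lower without NPC-3C. With all libraries kept, 13 were lower after rescaling to the same total, 4 with quantile normalization and 21 with array weights. Cox5a, of cytochrome c oxidase, had 933, 1022, 2279 and 1341 at 3 weeks and 2305, 2566, 1829 and 2399 at 1 week. NPC-3C was the only 3-week library within the 1-week range, and Cox5a also lost its call without NPC-3A. Ribosomal and respiratory proteins are encoded by short transcripts, and the part of transcript length in these values was not tested.

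**Figure D4:**
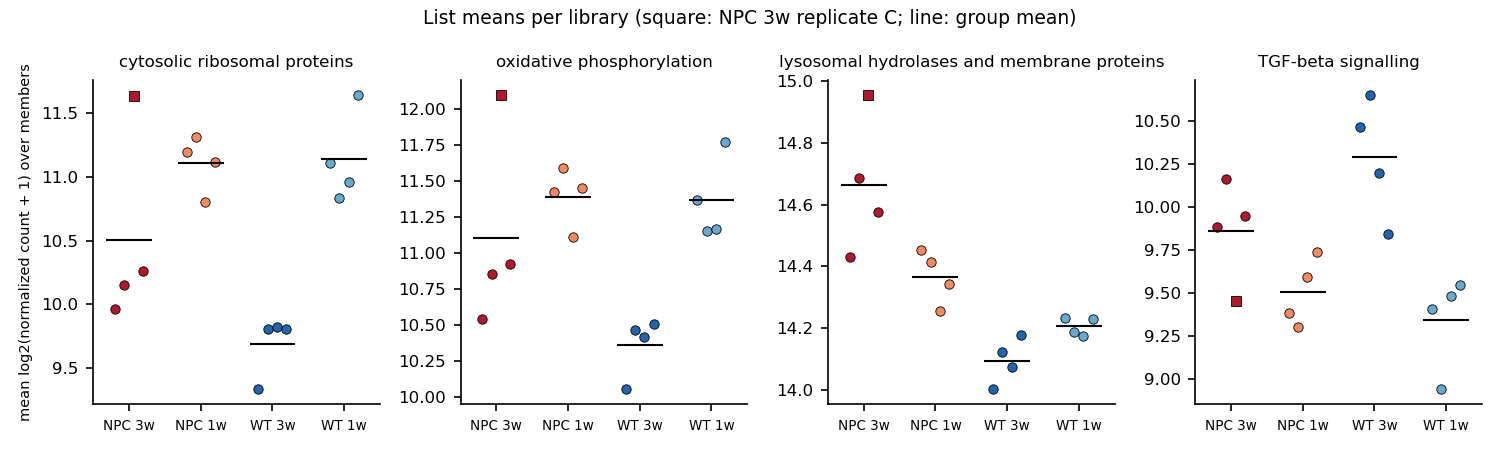
Mean of log2(normalized count + 1) over the members of 4 lists in each library, NPC 3w left of NPC 1w and WT 3w left of WT 1w, with the group mean as a line. NPC-3C (square) is the highest NPC library for the ribosomal, oxidative phosphorylation and lysosomal lists and the lowest NPC 3w library for TGF-beta signalling.

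Immediate early genes, which also respond to tissue handling, gave 8 higher and 6 lower of 25, against 12.2% and 12.8% of all genes. There were 2 to 5 higher without any 1 of the 8 libraries, 3 lower without NPC-1D, and 2 higher after rescaling to the same total. Without NPC-3C 5 were higher and 4 lower. Btg2, an antiproliferative gene, had 5411, 5976, 5773 and 4646 normalized counts in NPC 3w libraries, against 2465, 1994, 2060.3 and 1815 in NPC 1w libraries, and rose 2.62-fold (95% interval 1.92 to 3.58, limma adjusted p = 1.95e-05).

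The 12 largest rises included genes of choroid plexus epithelium, the tissue that makes cerebrospinal fluid next to the cerebellum. By the rule of largest change they were Kl, Ace, Slc4a10, Sostdc1, Duoxa1, Enpp2, Slc2a12, Tgm2, Clic6, Aqp1, Madcam1 and Car12. Kl, a co-receptor for fibroblast growth factor 23 made by choroid plexus, had 103, 489, 134 and 607 normalized counts in NPC 3w libraries, against 3.15, 5.36, 2.83 and 17.8 in NPC 1w libraries, and rose 38.5-fold (95% interval 16.6 to 89.2, limma adjusted p = 8.54e-08). Enpp2, which makes lysophosphatidic acid, had 3073, 12514, 6053 and 16259 at 3 weeks and 308, 517, 508 and 396 at 1 week. The thyroxine carrier Ttr, also made by choroid plexus, had 2885, 10874, 8607 and 16112 at 3 weeks and 801, 1185, 988 and 547 at 1 week, and 1062, 5871, 1875 and 834 in WT 3w and 1163, 723, 416 and 449 in WT 1w libraries. In Ttr and Enpp2 NPC-3A was the lowest 3-week library of NPC and WT-3B the highest of WT. A list of 14 choroid plexus genes, chosen after these values were seen, summed to 6549 to 35057 normalized counts in NPC 3w and 1107 to 1837 in NPC 1w libraries, and to 2159 to 13683 in WT 3w and 904 to 1998 in WT 1w libraries. Its median change was 3.82 in NPC and 1.72 in WT on the log2 scale. The list holds genes picked for their rise in NPC, so neither this median nor the separation of the NPC sums is an independent result. The test of a difference from WT was passed by 0 of 14, with or without NPC-3C, against 0.861% and 0.199% of all genes. Ace, Slc4a10, Sostdc1 and Enpp2 passed it under some other settings. Ace, the angiotensin-converting enzyme, the transporters Slc4a10 and Slc2a12, the secreted antagonist Sostdc1, Clic6, the water channel Aqp1 and the carbonic anhydrase Car12 rose between 13.3-fold and 27-fold, and 38.5-fold for Kl was the largest rise. The part of choroid plexus RNA in these rises was not tested. Duoxa1, which matures the dual oxidase, had 215, 175, 442 and 281 in NPC 3w and 12.6, 7.51, 18.8 and 11.3 in NPC 1w libraries and rose 20.3-fold (95% interval 10.7 to 38.4, limma adjusted p = 1.94e-08). Transglutaminase 2 (Tgm2), a protein cross-linker of macrophages, had 5671, 5059, 3185 and 4961 at 3 weeks and 489.7, 214, 429.6 and 162 at 1 week and rose 15.7-fold (95% interval 10.2 to 24.2, limma adjusted p = 6.08e-11), with 8459, 8106, 5071 and 8012 in WT 3w and 929, 344, 464 and 228 in WT 1w libraries. The part of choroid plexus RNA in the rises of Duoxa1 and Tgm2 was not tested either. Madcam1, an adhesion molecule for integrin alpha 4 beta 7, rose 14.9-fold (95% interval 5.47 to 40.7, limma adjusted p = 0.000125).

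Neuronal transcripts made up another part of the largest falls. Markers of granule neurons and their progenitors, which fill the cerebellum in the first weeks, were lower in 9 of 17 tested cases, against 12.8% of all genes, and higher in 0. Without NPC-3C 8 were lower. The list summed to 134, 137, 94.9 and 185 normalized counts in NPC 3w libraries, against 872, 475, 1662 and 1426 in NPC 1w libraries, with no overlap. Neurod1, a factor of granule neurons, had 0.838, 1.07, 0 and 4.19 at 3 weeks and 181, 108, 373 and 325 at 1 week. Mfap4 had 0, 1.07, 0 and 2.1 at 3 weeks and 144, 52.5, 293 and 192 at 1 week, Barhl1 0, 0, 0 and 1.05 and 45.2, 18.2, 57.5 and 56.5, and the tubulin-binding protein Stmn2 3.35, 4.27, 0 and 9.43 and 139.8, 89, 226 and 278. At these levels the 3-week libraries were at or near 0, so the fitted changes are not bounds. In WT the list summed to 80.6 to 154 at 3 weeks and 507 to 914 at 1 week. The part of neuronal RNA in other falls was not tested. Ppic, a cyclophilin, had 5.03, 2.13, 1.3 and 7.33 at 3 weeks and 213, 231, 239 and 306 at 1 week and fell by 5.82 ± 0.84 (SE) on the log2 scale (limma adjusted p = 4.87e-06).

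**Figure D5:**
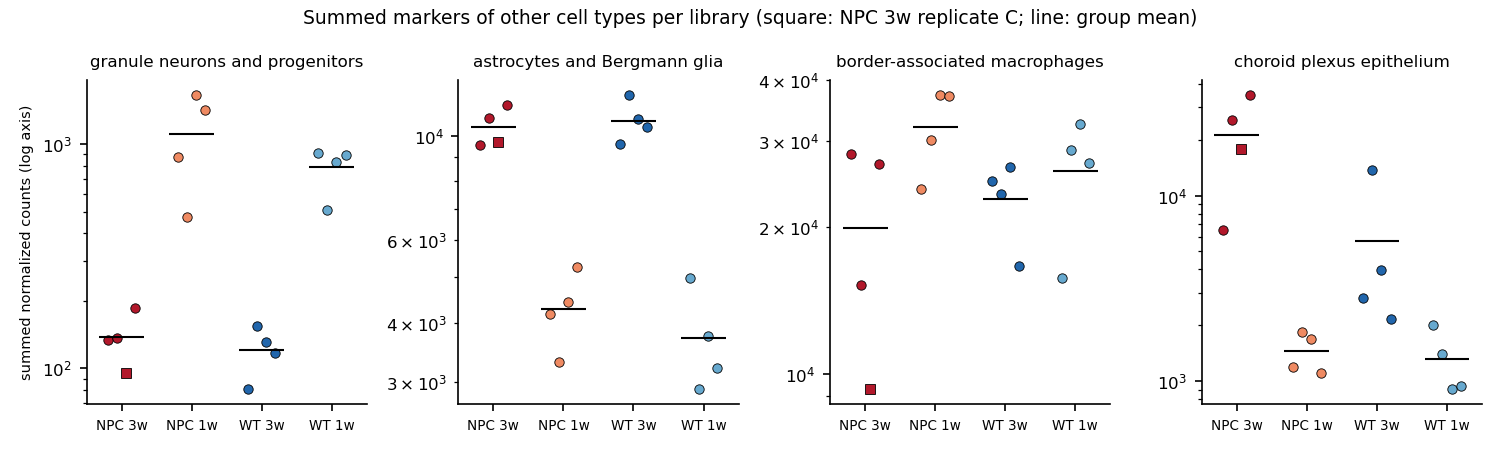
Summed normalized counts of marker lists of other cell types in each library (log axes), NPC 3w left of NPC 1w and WT 3w left of WT 1w, with the group mean as a line and NPC-3C as a square. Granule neuron markers fell to 94.9 to 185 in NPC 3w libraries, against 475 to 1662 in NPC 1w libraries. Choroid plexus genes lay above every 1-week library in all 4 NPC 3w libraries. That list was chosen after the values were seen and holds genes picked for a rise without overlap, so its separation is no independent result.

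Markers of other cells moved less evenly. Border-associated macrophages share the lineage of microglia and lie in the meninges and around vessels, and young microglia express part of their genes. Of 11 tested, 5 were lower (Mrc1, Pf4, Cbr2, Folr2 and Clec10a), against 12.8% of all genes, and 0 higher, or 4 without NPC-3C and 3 without NPC-1B or NPC-1C, and the list summed to 9299 to 28252 in NPC 3w and 23911 to 37381 in NPC 1w libraries, which overlapped. The mannose receptor Mrc1 had 1000.2, 1135, 623 and 1207 normalized counts in NPC 3w libraries, against 6805, 7382, 7779 and 7809.8 in NPC 1w libraries, and fell by 2.95 ± 0.23 (SE) on the log2 scale (limma adjusted p = 1.02e-10). Its difference from WT, 1.19 ± 0.33 (SE, limma adjusted p = 0.074), missed the threshold with all libraries and passed without NPC-3C (adjusted p = 0.0231), without WT-1A (0.0122) or WT-3C (0.026) and in 5 other alternatives. Lyve1 and Cd163, defining markers of these macrophages, were at or near 0 in both groups, at most 16.9 and 9.7 normalized counts. The folate receptor Folr2 had 128, 125, 233 and 169.7 at 3 weeks and 310, 567, 500.2 and 575 at 1 week and fell by 1.57 ± 0.28 (SE) on the log2 scale (limma adjusted p = 7.72e-05), and Cbr2 by 1.57 (limma adjusted p = 0.0102).

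The counts that follow are set against 12.2% of all genes higher and 12.8% lower. Astrocyte and Bergmann glia markers gave 2 higher and 1 lower of 14, shares near or below those, with sums of 9561 to 11629 in NPC 3w and 3303 to 5249 in NPC 1w libraries. Most of each sum was Slc1a3, except in NPC-1D, where Slc1a3 was 2498 of 5249. This glutamate transporter, which microglia also express, had 8479, 8992, 6422 and 10205 normalized counts in NPC 3w libraries, against 3123, 2359, 2599 and 2498 in NPC 1w libraries, and rose 3.2-fold (95% interval 2.59 to 3.94, limma adjusted p = 7.85e-10). The count of 2 was 1 without any 1 of NPC-1A, NPC-1B or NPC-1C or NPC-3B. Without NPC-3C 2 of these 14 markers were lower. Fabp7, of radial and Bergmann glia, had 26.8, 48, 173 and 29.3 at 3 weeks and 164, 217, 401 and 639.9 at 1 week and fell by 2.58 ± 0.72 (SE) on the log2 scale (limma adjusted p = 0.0083). Oligodendrocyte markers gave 1 higher and 4 lower of 14, with 3 lower without NPC-3C and 2 lower without NPC-1C or NPC-1D. Pdgfra, of oligodendrocyte precursors, had 8.38, 6.4, 0 and 4.19 at 3 weeks and 70.4, 85.8, 252 and 205 at 1 week and fell by 4.94 ± 0.93 (SE) on the log2 scale (limma adjusted p = 0.000182), while the myelin glycoprotein Mag rose 1.65-fold (95% interval 1.31 to 2.08, limma adjusted p = 0.00142). Endothelial and pericyte markers gave 1 higher of 13 (Kdr, 2.52-fold (95% interval 1.43 to 4.44, limma adjusted p = 0.0136)), and 0 without NPC-1B or NPC-3D and 2 without NPC-3C, with the endothelial marker Cldn5 at 0 in 7 of the 8 libraries. For monocytes and neutrophils 1 of 14 was higher and 1 lower, for lymphocytes 0 and 1 of 4, for erythroid cells 0 and 0 of 2 and for sex-linked genes 0 and 0 of 5. Without NPC-3C no monocyte or neutrophil gene passed.

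The change between 1 and 3 weeks differed between the genotypes for few genes. Of 14046 tested, 121 changed more in the upward direction in NPC (0.861%) and 28 more in the downward direction (0.199%), and 2525 had an unadjusted p under 0.05. The 121 comprised 55 genes that rose in NPC, 19 that fell and 47 with no call of their own. The 28 comprised 4 that fell in NPC, 8 that rose and 16 with no call. Leaving out 1 library moved the 121 to 276 (NPC-3A), 77 (WT-1C or NPC-1B), 74 (NPC-3B), 67 (WT-3B), 66 (WT-3A), 57 (WT-1D) or 51 (NPC-1C), and the 28 to 144 (NPC-3A), 18 (NPC-1A), 15 (WT-3A), 12 (WT-3B), 11 (NPC-1C) or 10 (WT-1D).

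For several of the largest differences the fall in WT was large and the change in NPC did not pass the threshold. Heparanase (Hpse), which cuts heparan sulfate, had 1248, 2235, 2983 and 1445 normalized counts in NPC 3w and 2104, 2322, 2642 and 3791 in NPC 1w libraries. In WT it had 100.3, 108, 60.3 and 89.2 at 3 weeks and 715, 1076, 1722 and 2644 at 1 week, and the difference between the changes was 3.45 ± 0.52 (SE, limma adjusted p = 0.0016). The change within NPC had a limma adjusted p of 0.331, and every WT 3w library lay below every other library of the 4 groups. Complement C2 showed the same order, with 583, 1178, 709.8 and 936 in NPC 3w and 1351, 752, 785 and 1298 in NPC 1w libraries and 10.3, 21.3, 43.7 and 40.3 in WT 3w and 146, 265, 374 and 759 in WT 1w libraries, a difference of 3.34 ± 0.71 (SE, limma adjusted p = 0.0154). The difference of C2 lost its call without WT-1D (limma adjusted p = 0.0507). The interferon-induced gene Ifi27l2a had 586, 739, 2393 and 832 in NPC 3w and 2162, 1149.6, 1115 and 1631 in NPC 1w libraries, and 50.7, 111, 146 and 109 in WT 3w and 1401, 1167, 1012 and 1624 in WT 1w libraries, a difference of 3.11 ± 0.63 (SE, limma adjusted p = 0.0125). The monocyte chemoattractant Ccl7 differed by 3.26 ± 0.79 (SE, limma adjusted p = 0.0344). That call was lost without NPC-3C (adjusted p = 0.0622) and with the replicate block (adjusted p = 0.0635). It was also lost without any 1 of WT-1B, WT-1C, WT-1D, WT-3A, WT-3B, NPC-1B, NPC-1C, NPC-1D, NPC-3B or NPC-3D (adjusted p between 0.0541 and 0.0911).

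Other genes rose in NPC. Cd244, a receptor of the SLAM family, had 150.1, 141, 221 and 279 normalized counts in NPC 3w and 24.2, 15, 17 and 12.9 in NPC 1w libraries, against 46.5, 35.8, 40.6 and 12.5 in WT 3w and 43.2, 27.6, 47.8 and 21.7 in WT 1w libraries. It rose 10.7-fold (95% interval 6.25 to 18.4, limma adjusted p = 7.08e-08) in NPC and the difference was 3.55 ± 0.54 (SE, limma adjusted p = 0.0016). Cd200r4, of the Cd200 receptor family with close copies between which reads can be split, had 361, 389, 697 and 316 in NPC 3w and 176, 240.2, 123 and 201 in NPC 1w libraries and 26.9, 13.6, 5.2 and 29.7 in WT 3w and 40.8, 58.5, 113 and 99.9 in WT 1w libraries. Its difference was 3.35 ± 0.59 (SE, limma adjusted p = 0.00467), and its rise within NPC of 2.32-fold lost the call without NPC-3C (adjusted p = 0.0958), without NPC-1A (0.0571), NPC-1C (0.107) or NPC-1D (0.0511) and after rescaling to the same total (0.0639).

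In the 8 largest differences in the downward direction, every WT 3w library lay above every NPC 3w library. The clock-output factor Hlf had 142, 57.6, 58.5 and 112 normalized counts in NPC 3w and 62, 24.7, 32 and 37.9 in NPC 1w libraries, against 568, 641, 337 and 485 in WT 3w and 105, 17.7, 25 and 27.2 in WT 1w libraries, a difference of -2.64 ± 0.56 (SE, limma adjusted p = 0.0154). Trp53i11, a p53-inducible gene, had 164, 279.6, 108 and 202 in NPC 3w and 216, 194, 398 and 295 in NPC 1w libraries and 1355, 1062, 685 and 1264 in WT 3w and 575, 354, 363 and 201 in WT 1w libraries, a difference of -2.17 ± 0.40 (SE, limma adjusted p = 0.00572). The receptor phosphatase Ptprm, the actin cross-linker Actn1, the activin receptor Acvr2b, the latrophilin Lphn2 and the protocadherin Pcdhgb4 differed by -1.77, -1.79, -1.72, -1.49 and -1.51 on the log2 scale (limma adjusted p = 0.0489, 0.0255, 0.0335, 0.0389 and 0.00874). Reads of Pcdhgb4 can come from exons shared by its gene cluster. Klf2, described above, is the remaining gene. Without NPC-3C, Ptprm and Acvr2b no longer passed (adjusted p = 0.0848 and 0.0631), and in the fit of only the groups compared neither Hlf nor Trp53i11, Actn1, Lphn2, Ptprm or Pcdhgb4 did (adjusted p between 0.052 and 0.205). The calls of Ptprm, Acvr2b, Actn1 and Lphn2 were each also lost without several other single libraries. Acvr2b further lost its call with the replicate block (adjusted p = 0.0649) and Lphn2 after rescaling to the same total (0.0559). Ptprm did so with quantile normalization (0.0602) and with edgeR (0.0579).

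Values at later ages are given as a description. Cst7 averaged 307 ± 50.8 at 1 week, 954 ± 219.7 at 3 weeks, 1963 ± 756 at 6 weeks and 2846 ± 149.7 normalized counts at 9 weeks in NPC microglia (SD, n = 4, or 3 at 9 weeks). Il1b averaged 166 ± 20.9, 809 ± 192, 1299.7 ± 220.3 and 2087 ± 258 at these ages, also a rising order of means. Mcm6 averaged 5575 ± 285, 546 ± 111, 1133 ± 200.5 and 796 ± 149, so its lowest mean was at 3 weeks. Selplg averaged 38502 ± 12608, 104341 ± 7905, 105750 ± 2381 and 67857 ± 4963, with the means at 3 and 6 weeks within 1 SD of each other.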

How the data were processed

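Values were read from 1 deposited table of 24015 genes and 41 libraries. Per the submitters' processing notes the authors used FastQC 0.11.4, STAR 2.5.1b and DESeq2 with build mm9; the annotation and counter are not given in the sources used here. The deposited signal values are read counts divided by 1 size factor per library: the steps between low values gave whole reads for 100% of values within 1e-06. The kit does not mark strand, so antisense and overlapping genes cannot be told apart.

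The main test was limma 3.58.1 (R 4.3.3) on log2(value + 1), with trend and robust options, over 31 time-course libraries with 1 mean per group (23 residual degrees of freedom), for the 14046 genes that reached 10 normalized counts in 3 or more libraries. Tests were two-sided, with Benjamini-Hochberg adjustment over all genes tested and a threshold of 0.05. A fold change is on the log2(value + 1) scale and understates the change of low genes. The difference from WT is the contrast of both changes. edgeR 4.0.16 and DESeq2 1.42.0 were run on the recovered reads as alternatives, with 0 unused columns. The script was tested on simulated data. The labels give separate mice by the study's design, and p-values measure the spread between these libraries.

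Members and lists were chosen with earlier results of these data known. Named genes are the 12 largest rises and 12 largest falls without overlap (mean of at least 100 in the higher group, no predicted genes), the 8 largest differences from WT each way, up to 6 members per list with the smallest adjusted p, and markers. A few genes that meet this rule are not reported here. Ttr, Cdc20, Prc1 and Top2a lie outside this rule and were chosen after their values were seen, as was the choroid plexus list. Promoter sequences are from RefSeq, build GRCm38.p6; the deposited values use mm9, and no coordinates were converted.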

Additional observations from a re-analysis of the deposited data

Results flagged for a closer look

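Within a group of 4 libraries, a value was picked out where its gap to the nearest other library, divided by the group's range, exceeded Dixon's 95% critical value. Of 282 sets of 4 values checked for the genes named in the text, 27 met this, and chance alone picks out about 5% (14.1 sets). In 8 of the 27 the library was NPC-3C. In brackets are the library's normalized count and the median of the other 3 libraries of its group. NPC-3C stood above the rest of its group in Ifi27l2a (2393, 739), Bub1 (103, 47.8), Birc5 (182, 81.3), Tgfbr1 (95233, 47173), Aif1 (20094, 9218) and Fabp7 (173, 29.3), and below the rest of its group in Itgam (18335, 49653) and Mef2a (5989, 13409). NPC-3A stood below the rest of its group in Ctsd (1343146, 1651766). NPC-3D stood below the rest of its group in Relb (1075, 1422). NPC-1A stood above the rest of its group in Mcm5 (6245, 5959), Isg20 (108, 47.6), Ifit3 (879.6, 277), H2-K1 (18820, 9135) and Itgb2 (12228, 9243), and below the rest of its group in Pfkl (3769.7, 4438). NPC-1D stood above the rest of its group in Kl (17.8, 3.15), Depdc1a (156, 84.7), Ccna2 (2171, 1738) and Ccrl2 (463, 302), and below the rest of its group in Npc1 (311, 491). NPC-1B stood above the rest of its group in Mcm6 (5999, 5428) and Rpl10a (3067, 2232), and below the rest of its group in Top2a (3523, 4019.8). NPC-1C stood above the rest of its group in Slc4a10 (21.7, 1.05), and below the rest of its group in Bub1 (957, 1244) and Cbr2 (365, 403).

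For 27 genes named in the text, the change between 1 and 3 weeks differed between NPC and WT by the test of the difference itself (limma, adjusted p under 0.05 over all genes tested). The 8 largest differences each way were picked for naming by this same test, so the count of 27 is no result about the named genes. Over all 14046 genes tested 121 passed as higher (0.861%) and 28 as lower (0.199%). In brackets is the change in NPC minus the change in WT on the log2 scale. The difference was positive for Il1rn (3.77), Cd244 (3.55), Cxcl10 (3.54), Hpse (3.45), Cd200r4 (3.35), C2 (3.34), Ccl7 (3.26), Ifi27l2a (3.11), Cst7 (2.54), Il1b (2.44), Ifit3 (2.38), H2-K1 (1.65), Birc5 (1.57), Ccna2 (1.4), Cd83 (1.25), Cxcl16 (1.11), Aldoa (0.933), Irf9 (0.781) and Irf1 (0.687). It was negative for Hlf (-2.64), Klf2 (-2.34), Trp53i11 (-2.17), Actn1 (-1.79), Ptprm (-1.77), Acvr2b (-1.72), Pcdhgb4 (-1.51) and Lphn2 (-1.49). The adjusted p-values of these genes lay between 0.000122 and 0.0489.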

How the results depend on the processing

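The counts of genes higher and lower in NPC microglia at 3 weeks than at 1 week were 1710 and 1799. They moved by more than 1.5 times to 1033 and 3129 after rescaling to the same total and to 685 and 774 in the fit of only the 8 libraries compared. With limma array weights 2710 genes were lower (2477 higher). Both counts stayed within 1.5 times under either other pseudocount, either other filter, quantile normalization, edgeR, DESeq2 and leaving out 1 library (1421 to 1926 higher and 1396 to 2061 lower). The 7-library fit without NPC-3C, chosen after seeing the data, called 1806 genes higher and 2059 lower. Of these 3865 genes 2608 were among the 3509 called with all libraries, and 2746 of those 3509 were called without NPC-3C in the full fit.

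The counts of differences from WT, 121 and 28, were less stable. They became 73 and 8 in the fit of only the 16 libraries compared, 272 and 176 with array weights and 375 and 104 with DESeq2, and between 51 and 276 and between 10 and 144 without 1 library. The cause of these shifts was not tested. Among single genes named, 1 called value changed sign: Csf1r, at -0.124 with quantile normalization, cause not tested. Depth limits genes near 0 at 3 weeks, such as Neurod1 and Mfap4.

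The letters A to D are shared by all groups. Same-letter libraries did not deviate together (correlations over genes in NPC of -0.117, -0.122, -0.19 and 0.0898, in WT between -0.101 and 0.0199), so a letter is taken as a number only. With the letter as a replicate block 1676 genes were higher and 1825 lower, with differences from WT of 97 and 27, and not every library correlated best with its own letter.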
